A study of Mus musculus with 6 samples.

Results

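Transcripts of 6 mouse Ly6 genes (Ly6a, Ly6c1, Ly6c2, Ly6e, Ly6i and Ly6d) were followed in primary renal fibroblasts that had been kept alone or beneath Th17 cells. The genes were taken by symbol from a table of 34745 gene rows. They had been proposed because earlier results of this same contrast showed Ly6 genes lower with Th17 cells, so their change is given as a description with no test. Bulk RNA-seq libraries were made from 3 wells or cultures of lone fibroblasts and 3 of cocultured fibroblasts, all of WT genotype. The methods of the study name Balb/c mice but do not state the strain separately for these cells. The mouse age was not given in the sources used here. The fibroblasts came from digested kidney and were cultured in a fibroblast medium after isolation. The methods of the study do not state the medium during coculture or how long lone fibroblasts were kept. In the cocultured group, fibroblasts adhered for 6 h and then shared medium for 24 h with Th17 cells in an insert with 0.4 μm pores. The Th17 cells had been induced from splenic CD4+ T cells with IL-1β, IL-6, IL-23 and an antibody to IFN-γ on plates coated with anti-CD3 and anti-CD28. The sources used here do not give whether lone wells carried an empty insert, nor whether replicates were separate isolates, so p-values measure only the spread between these libraries, which may be technical.

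Ly6 proteins are small, cysteine-rich proteins with a three-finger fold that a glycosylphosphatidylinositol (GPI) lipid holds on the outer face of the cell membrane. Several are induced by interferons and serve as surface markers. Ly6a encodes Sca-1, a marker of stem and progenitor cells that many fibroblasts also carry, and Ly6c1 and Ly6c2 encode the Ly6C antigens of monocytes and endothelium. Ly6e encodes a widely expressed protein that limits entry of some coronaviruses and binds syncytin-A in the placenta. Ly6d marks lymphoid progenitors and keratinocytes. Ly6i is a close relative of Ly6a that has been found in myeloid cells.

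All 6 genes are protein-coding and lie within 350 kb of chromosome 15 (mm10). Their starts of translation are shown because read assignment between them depends on how far they differ. Each line gives the coding bases, 5′ to 3′, that lie in the exon with the start codon, read from GENCODE M21 transcripts (GRCm38). Capitals mark bases that differ from Ly6a at the same position. Ly6d is printed without capitals because its stretch is shorter.
Ly6a: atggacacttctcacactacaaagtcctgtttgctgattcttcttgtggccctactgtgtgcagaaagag
Ly6c1: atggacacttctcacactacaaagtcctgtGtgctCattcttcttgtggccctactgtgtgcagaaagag
Ly6c2: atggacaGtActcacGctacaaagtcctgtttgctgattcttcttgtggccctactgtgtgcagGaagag
Ly6i: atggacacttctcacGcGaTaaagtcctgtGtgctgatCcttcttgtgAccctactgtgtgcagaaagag
Ly6e: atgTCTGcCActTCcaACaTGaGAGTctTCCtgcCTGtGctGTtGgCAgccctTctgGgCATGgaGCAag
Ly6d: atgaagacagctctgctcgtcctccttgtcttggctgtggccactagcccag
The stretch of Ly6a is at chr15:74997535-74997604 on the minus strand and that of Ly6c1 at chr15:75048442-75048511, also minus. The other stretches are at chr15:75111598-75111667 (Ly6c2, minus), chr15:74982990-74983059 (Ly6i, minus), chr15:74957808-74957877 (Ly6e, plus) and chr15:74763509-74763560 (Ly6d, minus). Over 70 bases, Ly6c1 differed from Ly6a at 2 positions, Ly6c2 at 4, Ly6i at 6 and Ly6e at 37.

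Over whole coding sequences the genes fell into a close set (Ly6a, Ly6c1, Ly6c2, Ly6i) and 2 distant members. Ly6c1 and Ly6c2 were identical at 97.7% of aligned columns, and Ly6a matched Ly6i at 86.4% and Ly6c1 at 82.0%. Ly6e matched Ly6a at 53.1%. The longest run of bases that transcripts of Ly6a and Ly6c1 shared was 118 bases, against 188 for Ly6c1 and Ly6c2 and 11 for Ly6a and Ly6e. Of all windows of 100 bases in the transcripts of Ly6a, 1.45% also stood in a transcript of another gene, compared with 10.1% for Ly6c1, 5.81% for Ly6c2 and 0 for Ly6e. At 50 bases the shares were 19.0% for Ly6a and 32.8% for Ly6c1, and still 0 for Ly6e. Of the windows of 50 bases in Ly6c1, 21.5% also stood in Ly6c2 and 11.1% in Ly6a, the far more abundant gene. The few counts of Ly6c1 and Ly6c2 are therefore uncertain as to which of these 3 genes the reads came from, and the treatment of reads with several matches was not given in the sources used here.

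**Figure D1:**
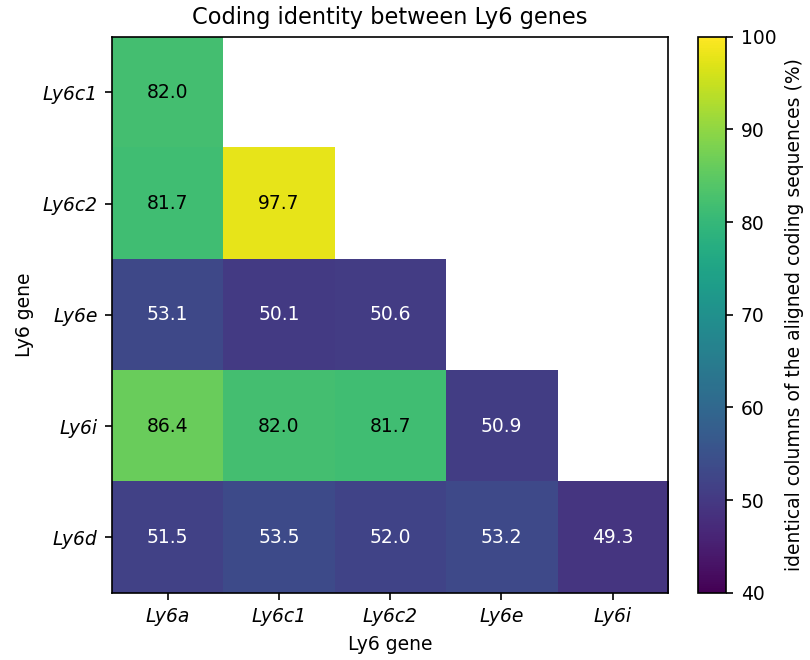
Heat map of the share (%) of identical columns in pairwise global alignments of the coding sequences of the 6 Ly6 genes, gaps included as columns. Ly6c1 and Ly6c2 stand at 97.7%, and every pair that includes Ly6e or Ly6d lies between 49.3% and 53.5%.

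The libraries held 12050529 to 13209581 counted fragments, and 13088 genes passed the filter on low counts. Levels are given as CPM, counts per 1000000 counted fragments after scaling by the trimmed mean of M values (TMM). A gene was called past the threshold where the Benjamini-Hochberg (BH) adjusted p of edgeR lay under 0.05 and expression differed by more than 2-fold. By that rule 506 genes were higher and 1018 lower in cocultured fibroblasts, and the median log2 fold change of all tested genes was 0.00. The fibroblast markers had counts in all libraries (summed level 41500 to 43200 CPM in lone and 18000 to 20600 CPM in cocultured fibroblasts, 13 of 13 listed markers tested, 1 higher and 5 lower). Their levels differed widely, from Col1a1 with means of 15100 CPM in lone and 6230 CPM in cocultured libraries to Lum with 7.47 and 3.15 CPM. Of 11 T cell markers Cd2, Cd3d, Cd8a, Il17a and Il17f were at 0 in every library, and 2 were tested. Trac had 20 to 41 counts in all libraries, without a call, and Lck, a kinase of T cells, was lower with Th17 cells (49, 68 and 59 against 33, 34 and 23 counts, adjusted p = 0.00755 by edgeR). The B cell list reached 16 CPM in 1 lone library (replicate 1) through Pax5, which had 205 counts there and 12 to 57 in the other libraries. Without that library 3 Ly6 genes were called, as with it.

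Of the 6 Ly6 genes, 4 had a count in any library and 3 passed the filter. These 3 (Ly6a, Ly6c1 and Ly6e) were all lower with Th17 cells and past the threshold, whereas 7.78% of all tested genes were lower past it. Their lone and cocultured libraries did not overlap, which held for 50.4% of all tested genes. The genes had been selected on this contrast, so nothing is read from these counts.

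Ly6a (ENSMUSG00000075602, chr15:74994877-74998031, minus strand) had the largest fitted fold of the members that kept counts in both groups. Its counts were 953, 976 and 806 in lone fibroblasts and 9, 7 and 11 in cocultured fibroblasts. The lone libraries were close to each other, and every cocultured library lay far below them. In CPM the level was 73.1 ± 4.54 (SD, n = 3) in lone and 0.685 ± 0.144 (SD, n = 3) in cocultured libraries. The cocultured libraries at 0.669, 0.55 and 0.837 CPM all lay above the level of 3 counts, 0.223 to 0.254 CPM. Even so, Ly6a passed the filter on low counts only through the lone group. The fitted log2 fold change was −6.71 (SE 0.141), and the ratio of the mean CPM was 107. That SE was derived from the test statistic and can be too narrow at 27 summed cocultured fragments. Among all tested genes, 23 had a log2 fold change as low or lower, Ly6a included. Some of them, such as Ly6c1 and Upk1b, had no cocultured counts, so their fitted values are not firm. Ly6a had been selected on this contrast, so nothing is read from this rank.

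Ly6e (ENSMUSG00000022587, chr15:74955051-74959905, plus strand) was the most abundant member and kept a substantial level with Th17 cells. Its counts were 6411, 6777 and 6586 in lone libraries and 2165, 2904 and 2724 in cocultured libraries. The highest cocultured library still held fewer than any lone library. The level was 530 ± 30.0 CPM (SD, n = 3) against 199 ± 34.4 CPM (SD, n = 3). The ratio of these means was 2.67, and the fitted log2 fold change was −1.41 (SE 0.117). Cocultured replicate 1 was the lowest at 161 CPM, next to 228 and 207 CPM in the others. Replicates of Ly6e varied by 5.66% of the mean in lone and 17.3% in cocultured fibroblasts, where counting alone would give 1.23% and 1.96%. For Ly6a the cocultured variation of 21% was no wider than the 33.3% that counting alone gives at 27 summed fragments.

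Ly6c1 (ENSMUSG00000079018, chr15:75044018-75048830, minus strand), a Ly6C gene, was scarce. It had 31, 16 and 17 counts in lone libraries and none in the cocultured ones. Lone replicate 1 stood above the others, and the group varied by 36.1% around 1.70 CPM. Against a floor of 3 counts per cocultured library the level was at least 7.23-fold lower, and the gene passed the filter only through the lone group. Ly6c2 (ENSMUSG00000022584, chr15:75108158-75111970, minus strand) had 1, 1 and 2 counts in lone and none in cocultured libraries. Both groups lay under the floor, so no fold is given. With 97.7% of coding columns identical to Ly6c1, these few counts cannot be assigned firmly to either gene, and Ly6a shares stretches with Ly6c1 as well.

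Ly6i (ENSMUSG00000022586, chr15:74979534-74983430, minus strand) and Ly6d (ENSMUSG00000034634, chr15:74762056-74763620, minus strand) had 0 counts in all 6 libraries. A count of 0 allows up to 3 counts, or 0.223 to 0.254 CPM. These limits cover counting error only. Ly6i is the nearest coding relative of Ly6a among the members.

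**Figure D2:**
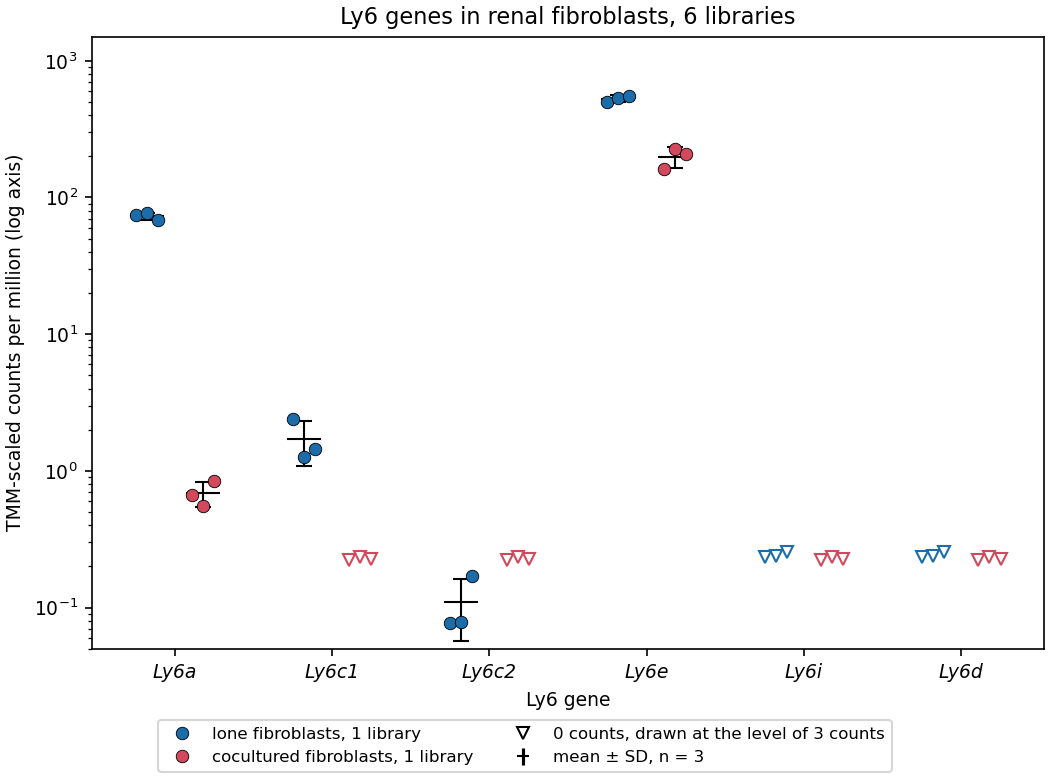
TMM-scaled CPM (log axis) of the 6 Ly6 genes, with points for single libraries of lone and cocultured fibroblasts, bars for mean ± SD (n = 3) and open triangles for 0 counts drawn at the level of 3 counts. The mean of Ly6a is 73.1 CPM in lone and 0.685 CPM in cocultured libraries and that of Ly6e 530 and 199 CPM, while Ly6i and Ly6d have no counts.

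To compare levels between members, values per length were used. In FPKM as deposited, Ly6e stood at 41.5 ± 2.47 and Ly6a at 20.7 ± 1.24 in lone fibroblasts (SD, n = 3). Ly6c1 followed at 0.505 ± 0.181 and Ly6c2 at 0.0244 ± 0.0119, and all neighbours in this order lay apart by more than their spread. The order of Ly6c1 and Ly6c2 is uncertain all the same. Ly6c2 lay under the floor, and the few counts cannot be assigned firmly to either gene. By mean FPKM, Ly6e ranked 944 and Ly6a 2032 among 18116 rows above 0 in lone fibroblasts. In cocultured fibroblasts Ly6e (16.3 ± 2.77) ranked 2578 and Ly6a (0.203 ± 0.044) 13204 of 17936 rows. For both genes the length behind FPKM, given below, exceeded the merged exons by more than the median of 1.22 times over all genes compared. Their ranks can therefore be too low.

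The make-up of the Ly6 signal differed between the groups. Ly6a gave 34.5%, 34.0% and 30.5% of the members' summed FPKM in the lone libraries and 1.48%, 0.864% and 1.44% in the cocultured ones. Nearly all that remained with Th17 cells was Ly6e. The FPKM ratio of Ly6e to Ly6a was 1.86, 1.92 and 2.26 in lone libraries and 66.5, 115 and 68.5 in cocultured libraries. The length behind FPKM needs care, since it came to 12.5 kb for Ly6e, longer than the 4.86 kb gene and its 3.78 kb of merged exons. For Ly6a it was 3.45 kb, against 1.21 kb of merged exons. Per kilobase of merged exons, a choice made after seeing these lengths, the ratio was 2.14, 2.21 and 2.60 in lone and 76.6, 132 and 78.9 in cocultured libraries, so the order of the genes was the same.

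**Figure D3:**
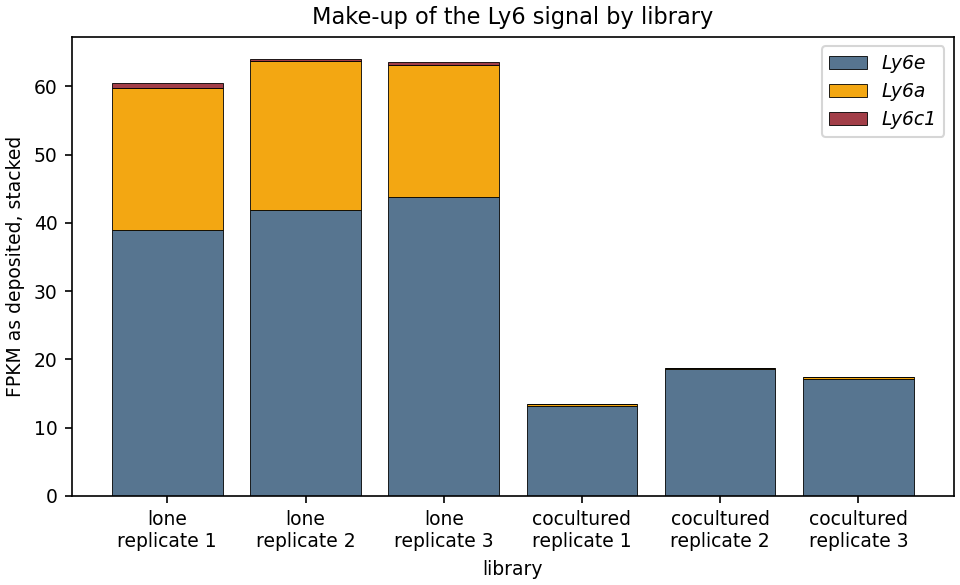
Stacked FPKM as deposited (linear axis from 0) of Ly6e, Ly6a and Ly6c1 in each of the 6 libraries; Ly6c2 is too low to draw and Ly6i and Ly6d are at 0. The summed level was 60.5 to 64.1 in lone and 13.4 to 18.7 in cocultured libraries, and the Ly6a segment nearly vanishes with Th17 cells.

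The list of other Ly6/uPAR genes was examined next. It and the gene lists below were chosen with earlier results of these data known, so their shares of calls are a description. Most of these relatives share the three-finger fold, though Them6, also listed, does not encode a Ly6 protein. The list held 41 rows of the table. Of them 15 had a count and 5 were tested, with 0 higher and 1 lower past the threshold, set beside 11.6% of all tested genes past it in either direction. The median log2 fold change of the 5 tested genes, Them6 included, was −0.19, which is the value of Them6. Lypd1, which encodes a regulator of nicotinic acetylcholine receptors, had 177, 231 and 217 counts in lone and 125, 108 and 92 in cocultured libraries. All cocultured libraries lay below all lone ones, and the log2 fold change was −1.02 (SE 0.162, adjusted p = 0.00105 by edgeR). That fold stands at the limit of 2, and the call was lost without lone replicate 2 (−0.95), without lone replicate 3 (−0.96) and without cocultured replicate 3 (−0.91).

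Plaur, the urokinase receptor, had 1258, 1114 and 1140 counts in lone and 974, 1100 and 1107 in cocultured libraries. Its log2 fold change of −0.21 (SE 0.0848) did not pass the threshold (adjusted p = 0.0768 by edgeR). Lynx1, another nicotinic receptor modulator and a neighbour of the Ly6 genes on chromosome 15, had 437, 410 and 356 counts against 457, 400 and 398 (log2 fold change −0.01, SE 0.0887, adjusted p = 0.935 by edgeR). Cd59a, an inhibitor of complement lysis, had 83, 115 and 61 against 93, 85 and 94 counts (log2 fold change 0.00, SE 0.207, adjusted p = 0.996 by edgeR). Them6, a listed neighbour that encodes a thioesterase-like protein rather than a Ly6 protein, had a log2 fold change of −0.19 (SE 0.249, adjusted p = 0.597 by edgeR). The groups overlapped for Lynx1, Cd59a and Them6. Ly6g, the neutrophil antigen Gr-1, had 1 count in all, and Ly6k had 0 to 7 counts in a library.

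Within 250 kb of the span of the members lay 39 other rows of the table, of which 14 had a count and 5 were tested. Only Cyp11b1 was called, among these 5, beside 11.6% of all tested genes called in either direction. This gene for a steroid hydroxylase of the adrenal cortex had 13, 19 and 12 counts in lone and 2, 2 and 1 in cocultured libraries (adjusted p = 0.00106 by edgeR). It lies at chr15:74834125-74841643, between Ly6d and Ly6e. Arc, Jrk, Them6 and Lynx1 had log2 fold changes between −0.45 and 0.12 and were not called, and the median of the 5 was −0.19. Cyp11b1 passed the filter only through the lone group, and its cocultured libraries lie below the floor of 3 counts. The ratio of its summed counts was 9.26, with a 95% exact binomial interval of 3.68 to 29.9 that covers counting error only.

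Since Ly6 proteins need a GPI lipid, the enzymes that build and handle it were counted. Of 32 tested, 1 was higher and 0 lower past the threshold, beside 11.6% of all tested genes in either direction, with a median log2 fold change of −0.07. At an unadjusted p below 0.05 edgeR gave 15 of the 32, beside 46.0% of all tested genes. The one called was Tmem8 (also Pgap6, a phospholipase that acts on GPI anchors), with 15, 11 and 8 counts in lone and 50, 38 and 26 in cocultured libraries (log2 fold change 1.66, SE 0.339, adjusted p = 0.00437 by edgeR). Without cocultured replicate 1 another gene, Gpld1, also passed (log2 fold change 1.56).

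Genes for other GPI-anchored proteins moved in both directions. Of 30 tested, 2 were higher and 10 lower, beside 11.6% of all genes called in either direction and 7.78% lower, with a median of −0.35. Bst2, one of the 10, also stands on the list of interferon-induced genes below. Gpc3, a heparan sulfate proteoglycan, fell from 7.29 ± 0.503 to 0.36 ± 0.233 CPM (log2 fold change −4.32). Its cocultured counts were 3, 8 and 3, so cocultured replicates 1 and 3 stood at the floor of 3 counts. Folr1, a folate receptor, fell from 5.58 ± 1.16 to 0.49 ± 0.359 CPM (−3.50), with 2, 11 and 6 cocultured counts. Without cocultured replicate 2 the log2 fold changes were −4.95 for Gpc3 and −4.17 for Folr1. Both genes passed the filter on low counts only through the lone group, so the size of their folds is uncertain. Bst1, an ectoenzyme of NAD metabolism, fell from 15.3 ± 1.20 to 3.74 ± 0.125 CPM (−2.03). Cd24a, a small mucin-like adhesion protein, rose from 3.91 ± 0.397 to 23.7 ± 1.74 CPM (2.60), and Sema7a, a semaphorin, from 10.1 ± 0.183 to 37.7 ± 3.99 CPM (1.89). All these means have n = 3 libraries with SD, and the adjusted p-values of edgeR ran from 6.83e-07 (Cd24a) to 0.000168 (Folr1). Thy1, which like Sca-1 is a GPI-anchored fibroblast surface marker, had a log2 fold change of −0.53 and did not reach the fold limit.

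As several Ly6 genes are interferon-responsive, genes of that pathway were set beside them. Among 15 tested signalling genes, 0 were higher and 5 lower, beside 7.78% of all tested genes lower, with a median log2 fold change of −0.18. With library size only, without lone replicate 2 and with limma, 1 was higher beside the 5 lower. Stat2, Irf1, Irf7 and Usp18 were among the 5 lower genes. Irf7, a transcription factor that amplifies type I interferon, fell from 368 ± 4.88 to 97.4 ± 6.32 CPM (log2 fold change −1.92, adjusted p = 7.99e-08 by edgeR). Usp18, a protease that limits the receptor signal, fell from 465 ± 10.4 to 150 ± 16.6 CPM (−1.63, adjusted p = 6.5e-07 by edgeR). The receptor genes differed in direction, and none passed the fold limit. Ifnar2 (−0.74, adjusted p = 1.12e-05 by edgeR) and Ifngr2 (0.99, adjusted p = 1.86e-06 by edgeR) missed that limit alone. Ifnar1 (−0.01, adjusted p = 0.901 by edgeR) and Ifngr1 (−0.06, adjusted p = 0.622 by edgeR) also missed the limit on p. Ifng had no count in any library.

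Of 26 tested interferon-induced genes, 24 were lower and 0 higher, beside 7.78% of all tested genes lower, with a median of −2.47. The exceptions were Ddx58 (−1.0) and B2m (−0.55), which did not pass the fold limit. Both interferon lists were chosen with earlier results of these data known, so nothing is read from their shares of calls. Cxcl9, a chemokine for activated T cells, had 152, 186 and 167 counts in lone and 6, 1 and 1 in cocultured libraries (log2 fold change −5.99, adjusted p = 2.11e-06 by edgeR). The cocultured mean lay under the level of 3 counts, and the ratio of summed counts was 66.5 (95% exact binomial interval 33.5 to 155, counting error only). Mx1, an antiviral GTPase, fell from 133 ± 6.54 to 2.96 ± 0.698 CPM (−5.48, adjusted p = 2.31e-08 by edgeR), and Cxcl10 from 933 ± 14.3 to 42.2 ± 4.0 CPM (−4.47, adjusted p = 8.56e-09 by edgeR). The log2 fold change of Ly6e (−1.41) lay above the median of these genes. Ly6a (−6.71) lay below Cxcl9, an order that turned without cocultured replicate 1 (Ly6a −6.69, Cxcl9 −7.28), and with limma on log2(FPKM + 1) Ly6a (−4.17) lay above Cxcl10 (−4.26).

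**Figure D4:**
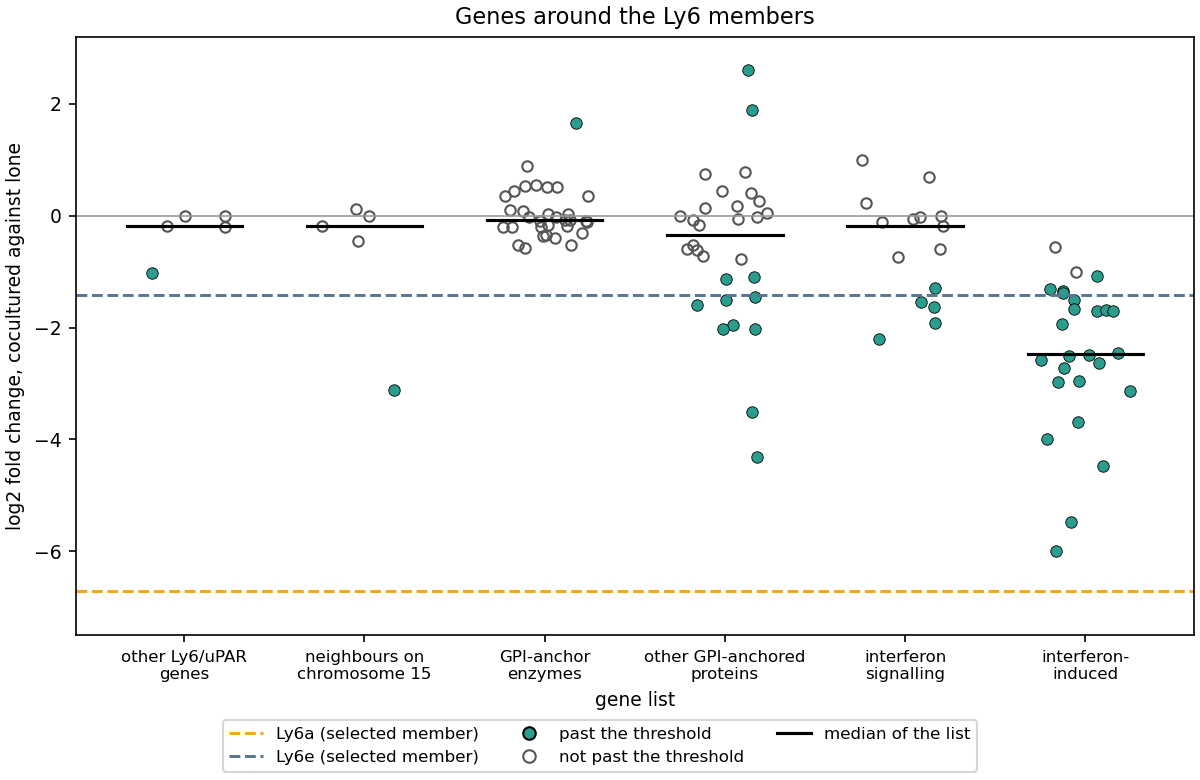
Log2 fold change (cocultured against lone fibroblasts) of each tested gene of 6 lists, filled where past the threshold, with a horizontal bar at the list median and dashed lines at the values of Ly6a and Ly6e. The interferon-induced genes center on −2.47, while the other lists have medians between −0.35 and −0.07. The lists were chosen with earlier results of these data known.

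Some markers of other cell types were called lower with Th17 cells, and others were tested without a call. Of all tested genes, 7.78% were lower past the threshold. The macrophage and monocyte list, whose cells carry Ly6C, summed to 58.7 to 62.2 CPM in lone and at most 21.1 CPM in cocultured libraries. Of its 12 markers 6 were tested and 4 were lower, and Ccr2 was at 0 throughout. Adgre1 (the macrophage antigen F4/80) had 71, 47 and 55 counts in lone and none in cocultured libraries, and Ptprc (CD45) had 14, 12 and 11 against none. Lyz2, lysozyme, had 337 to 358 against 38 to 49 counts. Cd14 had 127 to 151 against 129 to 170 counts, without a call. In bulk samples, fewer cells of a type and less RNA per cell cannot be told apart.

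The endothelial list summed to 9.95 to 10.2 CPM in lone and 5.17 to 5.89 CPM in cocultured libraries. Of 3 tested markers 1 was lower, with Emcn, Erg and Tie1 at 0. That marker was Kdr, a VEGF receptor, with 65, 74 and 68 against 2, 1 and 2 counts. Pecam1 and Egfl7 were not called. The epithelial list summed to 17.1 to 19.5 CPM in lone and 2.74 to 4.24 CPM in cocultured libraries. Of it Krt19 (171 to 203 against 25 to 39 counts) was called lower, Krt18 was not called, and Krt5 was at 0. The T cell list summed to 5.82 to 8.69 and 4.79 to 5.58 CPM and the neutrophil list to 1.24 to 2.03 and 1.19 to 1.45 CPM. Camp, the only neutrophil marker tested, was not called (log2 fold change 0.45). The part of these cell types in the values of Ly6a, Ly6c1 and Ly6e was not tested.

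The genes whose profile over the 6 libraries was most like that of each tested member were found by the Euclidean distance between log2 CPM values centered on the gene mean. A prior count of 2 was added before taking logs, so values of libraries with 0 counts rest on that prior. For Ly6a the nearest genes were C4b (distance 1.13), Upk1b (1.15) and Mx1 (1.38). C4b, a complement component, fell from 33.5 ± 2.92 to 0.403 ± 0.305 CPM. Upk1b, a uroplakin of urothelium, had 83 to 113 counts in lone and none in cocultured libraries. Mx1 is the interferon-induced gene given above.

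For Ly6c1 the nearest were Ms4a6d (0.42), a membrane protein of macrophages, and the predicted genes Gm7582 (0.45) and Gm16340 (0.47). Ms4a6d had 15 to 22 and Gm7582 13 to 22 counts in lone libraries, with none in cocultured ones. The cocultured values of Ly6c1, Ms4a6d and Gm7582 were therefore set by the prior count, and these distances say little about that group. Gm16340 had 84 to 127 against 5 to 7. For Ly6e they were Ccnb2 (0.13), a mitotic cyclin, Ldlrad4 (0.16), an inhibitor of TGF-β signaling, and Tubb3 (0.21), a β-tubulin. Ccnb2 had 386 to 419 counts in lone and 127 to 192 in cocultured libraries, with cocultured replicate 1 the lowest, as for Ly6e. A short distance says that the values were alike over these 6 libraries, which share the contrast between the 2 groups.

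**Figure D5:**
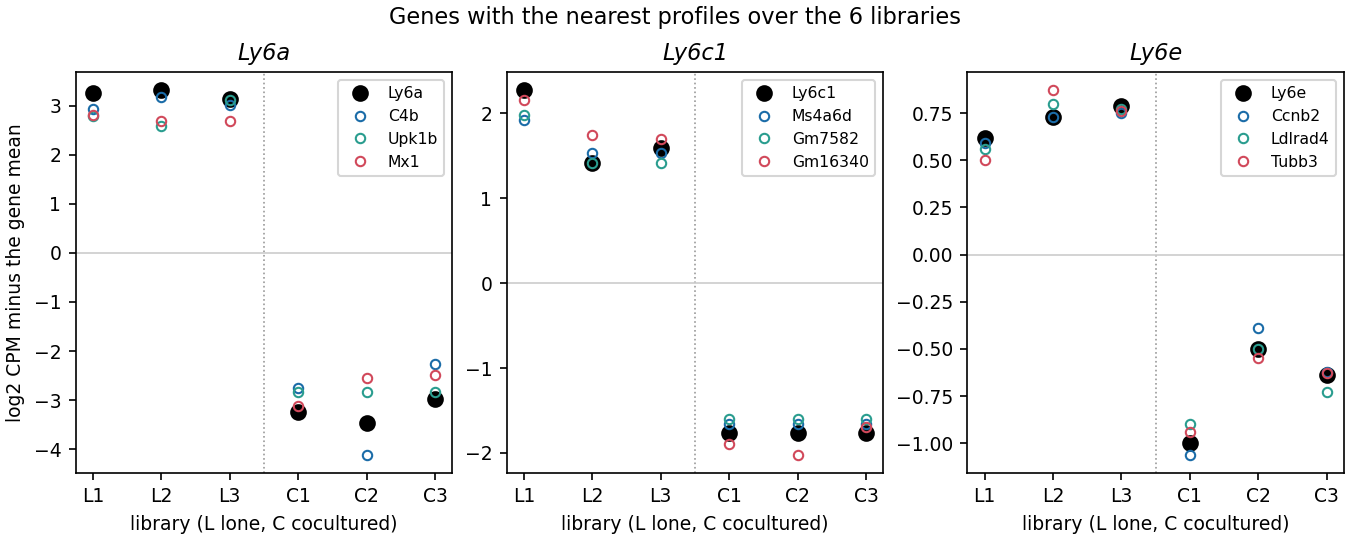
Log2 CPM minus the gene mean in each of the 6 libraries (L lone, C cocultured) for Ly6a, Ly6c1 and Ly6e, filled, and the 3 genes nearest to each, open. The panels have separate scales, and Ly6e spans less than 2 log2 units where Ly6a spans more than 6.

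Upstream sequence of RefSeq (GRCm38.p6) was at hand for Ly6c1 and Ly6c2. The letters of 2 interferon-linked motifs were looked for on both strands of the 250 bases before each start site, the core of the interferon-stimulated response element (GAAANNGAA) and the gamma-activated site GAS (TTCNNNGAA). Neither stood in the windows of Ly6c1 or Ly6c2, whereas 7.13% and 7.02% of 32851 windows of that length held a match. This says only that these letters are absent from these windows.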

How the data were processed

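RNA-seq libraries of mouse renal fibroblasts were processed by the authors. Reads were filtered with Seqtk and aligned with HISAT2 2.0.4, and fragments were counted per gene with StringTie 1.3.3b; the labels name mm10. The deposited table holds whole-number counts and FPKM per gene and library, both computed by the authors, and use of strand was not given in the sources used here. Genes with 1 transcript had a deposited FPKM length equal to that transcript (median ratio 1.00), whereas genes with 5 or more transcripts had a median of 1.41 times their merged exons, so FPKM understates genes with many transcripts, Ly6e among them. Library totals of 12050529 to 13209581 put 3 counts at 0.223 to 0.254 CPM.

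Groups followed the labels. Counts were filtered with filterByExpr (minimum count 10), scaled by TMM and fitted with the quasi-likelihood test of edgeR 4.0.16 (R 4.3.3) over all 6 libraries, with Benjamini-Hochberg adjustment over 13088 genes. Calls required an adjusted p under 0.05 with more than 2-fold difference. The fit was tested on simulated data. Alternatives were DESeq2 1.42.0, other scalings and filters, a replicate block, single libraries left out, and limma 3.58.1 on log2(FPKM + 1). The members and gene lists were chosen with earlier results of these data known. Named were all members, all tested relatives, called neighbours, at most 3 genes per direction and list, and the 3 nearest profiles of each tested member; further marker genes, Thy1, the interferon receptor genes, Ddx58, B2m, Ly6g and Ly6k, as well as Arc and Jrk, were named after their values were seen. Some listed genes are not reported here by name. Positions of the members were the same in GENCODE M21, and 34267 of 34745 gene IDs were found there. Coding sequences came from APPRIS principal transcripts.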

Additional observations from a re-analysis of the deposited data

How the results depend on the processing

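Ly6a and Ly6e stayed lower in cocultured fibroblasts in every fit that tested them. For Ly6e the log2 fold change ran from −1.52 to −1.28 over 14 alternatives, and for Ly6a from −6.88 to −6.58 when single libraries were left out. The lower bound for Ly6c1 ran from 5.73 to 8.16. With limma on log2(FPKM + 1), where the pseudocount compresses low genes, Ly6a stood at −4.17, 2 of the 3 tested members were called (Ly6c1 lost its call), the whole table gave 625 calls instead of 1524, the other Ly6/uPAR genes 0, the chromosome 15 neighbours 0, the GPI-anchor enzymes 0 and the other GPI-anchored proteins 7. With at least 10 counts in every library, only 1 member (Ly6e) was tested and called, and the neighbours gave 0, the GPI-anchor enzymes 0 and the other GPI-anchored proteins 7. With library size only, Lypd1 lost its call and the other Ly6/uPAR genes gave 0. Leaving out single libraries gave 0 to 1 calls there and 1 to 2 among the GPI-anchor enzymes. Uncalled genes changed sign. Lynx1 was at 0.05 with library size only, 0.05 with limma and between −0.06 and 0.03 with a library left out (0.03 without cocultured replicate 3), and Them6 lay between −0.29 and 0.04 likewise. Per kilobase of merged exons, an alternative added after seeing the data, lone Ly6a stood at 60.6 and lone Ly6e at 140. Replicate numbers did not pair the libraries (correlations of same-numbered deviations 0.0157, −0.0256 and −0.0036), and with the replicate block Ly6a was at −6.71 and Ly6e at −1.43. The block moved no count of calls by over 1.5 times. Depth limits Ly6c2, Ly6i and Ly6d, which lie under the level of 3 counts, and Ly6c1 in cocultured libraries. Apart from the settings named, each cause was not tested.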
